A study of Mus musculus with 18 samples.

Results

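Clustered histone genes are the many near-identical copies of the genes for H1, H2A, H2B, H3 and H4 that lie together in the Hist1, Hist2, Hist3 and Hist4 clusters. The raw count table held 68 rows with such symbols among its 23420 rows. The 12 with a summed count of at least 90 over all 18 libraries were taken here. They were 2 of 6 H1 rows, 3 of 18 H2A rows, 4 of 19 H2B rows, 2 of 12 H3 rows and 1 of 13 H4 rows. The count decided membership, so the size of a total is not a finding. The member with the lowest total was Hist2h3c2 with 90 counts, and the row just outside was Hist1h2ae with 88. Of the other 56 rows, 46 had at least 1 count and 10 were at 0 in every library.

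The cells were NIH-3T3, an immortalized mouse fibroblast line, as wild type (WT) and as an Nrf1-KO line in which Nrf1, the transcription factor encoded by Nfe2l1, had been knocked out with CRISPR/Cas9. Each line was given DMSO (vehicle) or 200 nM carfilzomib (CFZ), an irreversible proteasome inhibitor, for 6 or 24 h, with 3 libraries for each of the 6 groups. The labels give no time for the DMSO groups, so both time points share them. The knockout was represented by a single line, and any difference from the WT line cannot be told apart from a difference between clones.

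Replication-dependent histone genes supply the histones that package new DNA, and their transcripts rise in S phase. These transcripts are the textbook mRNAs without a poly(A) tail: they end shortly after a stem-loop that is bound by SLBP, and they are degraded when DNA synthesis stops. Some copies also give polyadenylated transcripts that run past the stem-loop, chiefly in cells that are not dividing. The libraries were made with an mRNA kit, so a histone count here came from a polyadenylated transcript or from RNA carried through the selection, and these sources cannot be told apart in a count. A level below is therefore a level in the mRNA library and not of all the histone RNA in the cell.

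The stem-loop of the members is shown because it is the feature that sets these transcripts apart. A form of it, GGC, any base, CTTTT, any base, AG, any base and GCC, was searched in the strand of the longest annotated protein-coding transcript of each row (GENCODE M21, GRCm38), and matched in 7 of 12 members and in 34 of the other 56 rows. Each match lies after the stop codon. In the stretches that follow, the 16 matching letters are in capitals with 5 bases on either side.
Hist1h1c: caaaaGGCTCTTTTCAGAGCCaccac
Hist3h2a: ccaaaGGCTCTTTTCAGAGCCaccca
Hist2h3c1: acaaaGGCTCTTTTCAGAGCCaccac
Hist1h2bg: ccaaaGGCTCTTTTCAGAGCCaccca
Hist1h1e: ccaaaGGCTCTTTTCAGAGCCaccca
Hist2h3c2: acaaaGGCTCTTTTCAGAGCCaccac
Hist1h4i: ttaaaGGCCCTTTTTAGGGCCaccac

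These stretches lie at chr13:23739507-23739532 (Hist1h1c, plus strand), chr11:58955167-58955192 (Hist3h2a, plus), chr3:96247322-96247347 (Hist2h3c1, plus), chr13:23571838-23571863 (Hist1h2bg, plus), chr13:23621777-23621802 (Hist1h1e, minus), chr3:96238480-96238505 (Hist2h3c2, minus) and chr13:22040961-22040986 (Hist1h4i, minus). The same 16 letters occurred in 6 of these members, and Hist1h4i had its own stem. The letters were rare elsewhere: they matched 49 of 141767 annotated transcripts, and 44 of those 49 belonged to the clustered histone rows. No match was found in the annotated transcripts of Hist1h2bc and Hist2h2be, and the transcripts of Hist1h2af, Hist1h2ak and Hist2h2bb end within 10 bases of the stop codon, so the region after it is not covered by the annotation.

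The annotated transcripts of the matching members did not stop at the stem-loop. The longest one ran 840 bases past it for Hist1h1c, 1643 for Hist3h2a, 1167 for Hist2h3c1, 1153 for Hist1h1e, 377 for Hist2h3c2, 330 for Hist1h4i and 155 for Hist1h2bg. An AATAAA, the usual poly(A) signal, lay within 50 bases of the transcript's end in Hist1h1c, Hist3h2a, Hist2h3c1 and Hist2h2be, which is 4 of 12 members, against 10 of the 56 other rows and 40.5% of all protein-coding transcripts. The members' longest transcripts had a median of 1088 bases, and those of the other rows 526. A longer transcript yields more counts at the same number of molecules, and since members were chosen by count, this difference is a description only.

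Copies of 1 class share sequence. Of the windows of 100 bases in the annotated transcripts, shorter than the paired reads, 100% for Hist2h3c1, 65.3% for Hist1h2af, 61.6% for Hist2h3c2, 45.4% for Hist2h2bb and 44.9% for Hist1h2bg also occur in a transcript of another gene, against 29.8% for Hist3h2a, 25.4% for Hist1h2bc, 24.7% for Hist1h1e, 15.1% for Hist1h4i, 10.5% for Hist1h2ak, 5.07% for Hist1h1c and 0% for Hist2h2be. For 7 of the 10 rows at 0 the share was at least 50%. How the counting treated such reads is not given in the sources used here, and values of Hist2h3c1, Hist2h3c2, Hist1h2af and Hist1h2bg are uncertain between copies. The shared windows of Hist2h2bb occur only in Gm42743 and those of Hist3h2a only in Trim17, so these values are uncertain between overlapping loci. Exons on the opposite strand cover 100% of Hist2h2bb, 35.3% of Hist1h2af, 35.1% of Hist1h2ak and 6.43% of Hist3h2a, and the strand setting of the counting is not given. Exons of Trim17 cover 33% of the exon bases of Hist3h2a on the same strand, those of Gm42743 cover 59.3% of Hist2h2bb, and those of Gm11398 and Hist1h2be together 25.7% of Hist1h1e. An uncharacterised locus, Gm20634, covers all of Hist2h3c1 on the same strand and is among the genes that share its windows. The 100% of Hist2h3c1 therefore does not show how much of it is shared with the other H3 copies, Hist2h3b and Hist2h3c2. Its values are uncertain between overlapping loci as well as between copies.

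Promoter stretches are shown for 4 members that carry elements known from histone genes. RefSeq promoters (GRCm38.p6) could be matched for 10 of the 12 members. The 140 bases from 150 to 11 bases before the annotated start were searched on both strands for the CCAAT box (CCAAT), the TATA box (TATAAA), the octamer ATTTGCAT of H2B and H2A promoters and the AAACACA of H1 promoters. No matches overlapped in the stretches printed, and capitals mark the letters found, as read on the gene's strand.
Hist1h1c: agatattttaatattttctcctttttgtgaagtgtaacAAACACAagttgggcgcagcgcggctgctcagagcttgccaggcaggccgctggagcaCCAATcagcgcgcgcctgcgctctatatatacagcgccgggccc
Hist1h1e: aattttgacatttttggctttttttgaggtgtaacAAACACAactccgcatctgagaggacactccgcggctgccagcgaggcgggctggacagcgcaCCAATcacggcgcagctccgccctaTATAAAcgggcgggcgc
Hist3h2a: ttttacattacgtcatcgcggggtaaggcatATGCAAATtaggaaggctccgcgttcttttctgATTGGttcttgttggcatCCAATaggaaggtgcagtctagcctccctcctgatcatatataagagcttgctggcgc
Hist1h2bg: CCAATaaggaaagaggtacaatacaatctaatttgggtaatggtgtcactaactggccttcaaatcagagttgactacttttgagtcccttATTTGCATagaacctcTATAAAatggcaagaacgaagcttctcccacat

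They lie at chr13:23738657-23738796 (Hist1h1c, plus strand), chr13:23622569-23622708 (Hist1h1e, minus), chr11:58954535-58954674 (Hist3h2a, plus) and chr13:23571250-23571389 (Hist1h2bg, plus). Both H1 members held AAACACA and CCAAT at nearly the same distances, AAACACA starting at -112 in Hist1h1c and -115 in Hist1h1e, and CCAAT at -54 and -52. The octamer was found in Hist1h2bg, Hist2h2bb and, in reverse, Hist3h2a. Among the matched members not shown, CCAAT was found in Hist1h2af, Hist1h2ak and Hist2h2bb. Hist1h4i held only TATAAA, at -137, and no element was found in Hist2h3c1 or Hist2h3c2. The stretches shown were thus picked for holding the elements. Of 32851 promoters of this length, 23.6% held CCAAT, 7.24% TATAAA, 3.34% AAACACA and 0.971% the octamer.

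The libraries held 8333148 to 23917081 counts, with a median of 14419832. The counts of the 12 members summed to 4848 over all 18, which is 80.2% of the 6042 counts of all clustered histone rows. Hist1h1c alone held 1913 of them. Individual values below therefore often rest on fewer than 20 counts in a library, and counting error is a large part of their spread. Nfe2l1, the targeted gene, had 448 ± 9.87 CPM (counts per 1000000 counts of the library after TMM, a scaling to the typical gene, SD, n = 3) in WT cells with DMSO and 180 ± 5.27 in Nrf1-KO cells with DMSO. The edited site is not given in the labels, so its transcript level need not show the knockout. All 10 fibroblast markers were expressed. After 24 h of CFZ 10 of 10 were lower in WT and 8 of 10 in Nrf1-KO cells, beside 40.5% and 41.1% of all genes tested. Of 4 epithelial markers, Epcam and Krt18 were at 0 in all libraries and Krt8 in all but 1 library of Nrf1-KO cells at 24 h (0.19 CPM), but Cdh1 stood at 6.12 ± 0.231 CPM in WT and 11.6 ± 1.22 in Nrf1-KO cells with DMSO and fell to 0.556 ± 0.233 and 0.397 ± 0.0957 at 24 h. Of 3 immune markers, Cd3e was at 0 throughout, Ptprc was at 0 in all WT libraries and between 0.719 and 1.33 CPM in Nrf1-KO libraries, and Cd68 rose from 0.698 to 3.21 and from 0.776 to 4.48 CPM. Of 2 endothelial markers, Cdh5 rose from 0.226 to 2.95 CPM in WT and from 0.181 to 3.4 in Nrf1-KO cells, whereas Pecam1 went from 0.157 to 0.0884 and from 0.293 to 0.1. The 2 muscle markers, Myod1 and Des, summed to 0.699 ± 0.114 CPM in WT and 1.23 ± 0.26 in Nrf1-KO cells with DMSO. At 24 h they summed to 0.861 ± 0.0611 and 2.02 ± 0.434. Des, the only one tested, was called higher in the Nrf1-KO line with DMSO, and higher at 24 h in Nrf1-KO but not in WT cells. Their part in the histone values was not tested.

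The members as a group lost most of their share of the library with CFZ. In WT cells they took 22.7 ± 0.896 CPM of the unscaled library with DMSO (SD, n = 3), 14.2 ± 1.63 after 6 h of CFZ and 5.69 ± 0.742 after 24 h. In Nrf1-KO cells they took 30.5 ± 0.629, 20.8 ± 1.05 and 10.6 ± 0.389. The 3 libraries of each group did not overlap with those of another time in the same line, and the mean at 24 h was 25.1% of that with DMSO in WT and 34.8% in Nrf1-KO cells. Without Hist1h1c the corresponding figures were 24.4% and 37.9%. In bulk RNA, fewer cells that make histone transcripts and less histone RNA in each cell cannot be told apart.

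The 56 rows outside the set were close to their DMSO level at 6 h and below it at 24 h. They took 5.37 ± 0.717 CPM with DMSO, 4.82 ± 0.373 at 6 h and 1.75 ± 0.0583 at 24 h in WT cells, and 5.61 ± 0.437, 5.39 ± 1.42 and 3.42 ± 0.511 in Nrf1-KO cells. At 6 h they therefore stood at 89.8% and 96.1% of DMSO, with overlapping libraries, where the 12 members stood at 62.6% and 68.2%. By class, the H1 members stood at 28.8% of DMSO after 24 h in WT cells, H2A at 19.1%, H2B at 35.3% and H3 at 13.2%, and in Nrf1-KO cells at 32%, 25.8%, 45.9% and 41.1%.

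**Figure D1:**
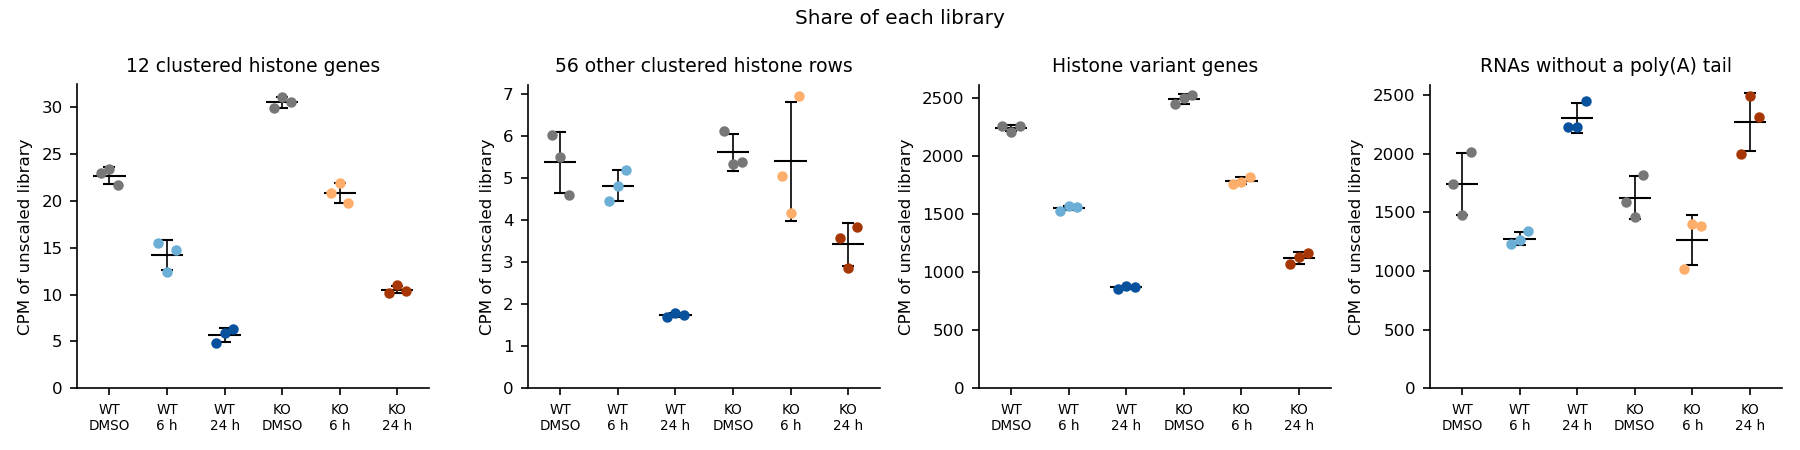
CPM of the unscaled library taken by the 12 clustered histone genes, the other 56 clustered histone rows, the histone variant genes and RNAs without a poly(A) tail. Each point is a library, the horizontal line the mean and the bar the SD of 3 libraries. Grey is for DMSO, blue for WT and orange for Nrf1-KO cells with CFZ. The members fall from 22.7 to 5.69 in WT and from 30.5 to 10.6 in Nrf1-KO cells. The last panel is almost all 1 RNA, the 45S ribosomal precursor Rn45s, which ends above DMSO at 24 h. In WT cells with DMSO its 19 RNAs held 85836 counts, and 42 without Rn45s.

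Each gene was tested with edgeR's quasi-likelihood test in a single model of all 18 libraries, with Benjamini-Hochberg adjustment over the 11762 genes that passed the filter on low counts and a call at an adjusted p under 0.05. Of the 12 members, 8 passed: Hist1h1c, Hist1h2af, Hist3h2a, Hist1h2bc, Hist2h2be, Hist1h2bg, Hist2h3c1 and Hist1h4i. Hist1h4i passed only through 5 DMSO libraries, so it could only be found lower with CFZ, and it is described apart from the counts where that matters.

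After 24 h of CFZ all 8 tested members were lower in WT cells, Hist1h4i included, and 7 of 8 were lower in Nrf1-KO cells. Of all genes tested, 40.5% were lower in the WT comparison and 41.1% in the Nrf1-KO comparison. Leaving out Hist1h4i, the counts were 7 of 7 and 6 of 7, with median log2 fold changes of -1.53 and -1.16. The fall was at least 2-fold for all 8 in WT and for 6 in Nrf1-KO cells, where 14.5% and 15.2% of all genes were called lower by that much. Over all 8 tested members the median log2 fold change was -1.66 in WT and -1.35 in Nrf1-KO cells, beside 0.02 and 0.03 over all genes. After 6 h, 5 of the 8 were lower in WT cells and 5 in Nrf1-KO cells, where 36.2% and 35% of all genes were lower, with medians of -0.69 and -1.16 beside -0.02 and -0.01. Without Hist1h4i these were 5 of 7 and 4 of 7, with medians of -0.71 and -1.09. The WT count at 6 h was not stable. It was 4 with DESeq2 and 3 without the first WT DMSO library. Leaving out other libraries also cost the call of Hist1h2af or Hist2h3c1, as given for these genes below. Some settings added a call of Hist1h1c instead, such as the edgeR fit with no filter (-0.31, adjusted p = 0.026). No tested member was called higher with CFZ at either time in either line.

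**Figure D2:**
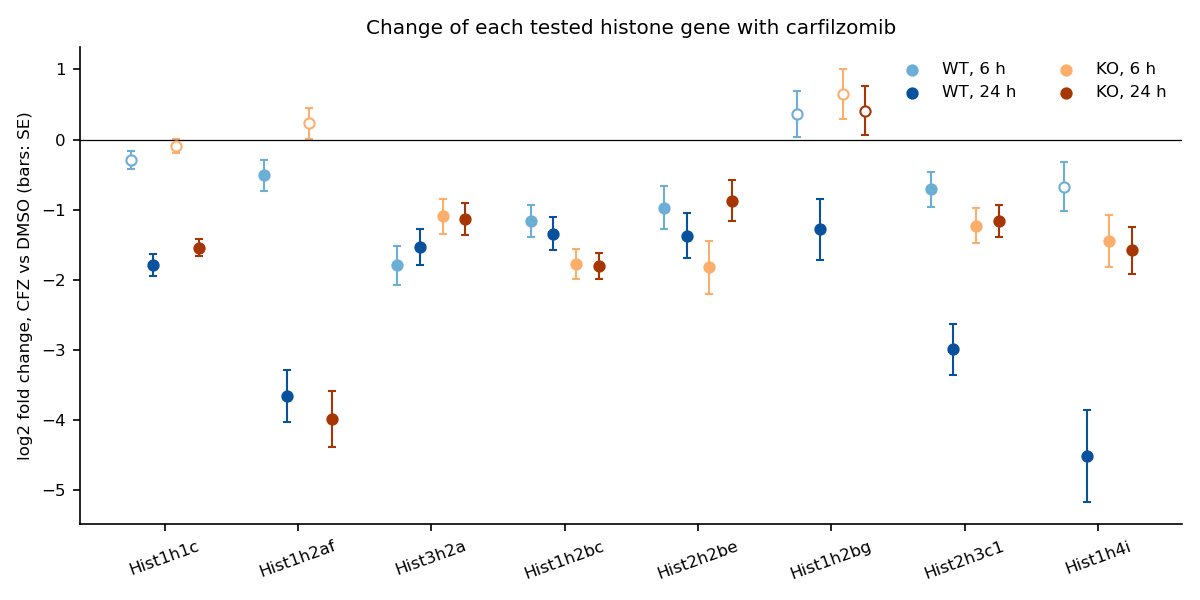
Log2 fold change of each tested member with CFZ against DMSO of the same line, with the standard error as a bar. Filled points were called at an adjusted p under 0.05 and open points were not. Hist1h1c and Hist1h2af lie between -0.51 and 0.23 at 6 h and between -3.98 and -1.54 at 24 h, Hist3h2a and Hist1h2bc are already low at 6 h, and the WT value of Hist1h4i at 24 h (-4.51) rests on 1 count.

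Hist1h1c encodes the linker histone H1.2, which binds DNA between nucleosomes, and was the most abundant member in counts. Its CPM (scaled by TMM) was 7.1, 7.5 and 6.23 in the WT DMSO libraries, 6.83, 5.75 and 4.59 after 6 h and 1.83, 1.86 and 2.29 after 24 h. In Nrf1-KO cells it was 11, 12.9 and 11.2 with DMSO, 10.1, 12.3 and 10.3 after 6 h and 3.87, 3.83 and 4.31 after 24 h. The 6 h libraries overlapped with DMSO in both lines and the 24 h libraries lay below all others of their line. The log2 fold change was -0.29 (SE 0.13, adjusted p = 0.051) at 6 h and -1.79 (SE 0.16, adjusted p = 1.5e-11) at 24 h in WT cells, and -0.09 (SE 0.1, adjusted p = 0.44) and -1.54 (SE 0.12, adjusted p = 2.2e-13) in Nrf1-KO cells. The WT value at 6 h lay next to the threshold, and was called with 4 of the 6 alternative settings. From 6 to 24 h the gene fell in both lines, by 1.5 and 1.45 on the log2 scale.

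Hist1h1c was also the member that differed most clearly between the untreated lines. With DMSO every Nrf1-KO library was above every WT library, and the log2 difference was 0.74 (SE 0.1, adjusted p = 3.7e-07). Hist1h2bc was the only other member called, at 0.58 (SE 0.15, adjusted p = 0.0021), so that 2 of 8 members were higher in Nrf1-KO cells, where 25.7% of all genes were. The other 6 had values between -0.38 and 0.4 and were not called. Of 30 S-phase genes, 23 were higher and 1 was lower in the Nrf1-KO line with DMSO, with a median of 0.31. Their part in the higher level of the 2 members was not tested.

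The second H1 member, Hist1h1e (H1.4), had 2 to 14 counts in each library and did not pass the filter. Its CPM ran from 0.203 to 0.597 over the 9 WT libraries and from 0.19 to 0.719 over the 9 Nrf1-KO libraries, with no group apart from the others. Per kilobase of the longest annotated transcript, Hist1h1e stood at 0.218 CPM and Hist1h1c at 4.45 CPM in WT cells with DMSO.

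Hist1h2af, an H2A gene of the Hist1 cluster, lost the largest part of its level in both lines among the members with more than 1 count in every group. Its CPM was 3.5, 3.66 and 2.78 in WT DMSO libraries, 2.5, 1.31 and 3.24 at 6 h and 0.203, 0.42 and 0.124 at 24 h. In Nrf1-KO cells the libraries stood at 3.22, 1.91 and 3.01, then 2.93, 3.48 and 3.36, then 0.211, 0.222 and 0.0634. The 6 h libraries overlapped with DMSO in both lines, and at 24 h no library held more than 7 counts. The log2 fold change at 24 h was -3.65 (SE 0.37, adjusted p = 1.3e-10) in WT and -3.98 (SE 0.4, adjusted p = 1.3e-10) in Nrf1-KO cells. At 6 h it was -0.51 (SE 0.22, adjusted p = 0.039) in WT cells, a call that was lost with DESeq2 (adjusted p = 0.061) and on leaving out any of 4 libraries, the first or second of WT DMSO or of WT 6 h, of which the second 6 h library gave -0.21. In Nrf1-KO cells the 6 h value was 0.23 (SE 0.22, adjusted p = 0.35). Per kilobase of the annotated transcript, which is only 399 bases, Hist1h2af had 8.3 CPM in WT cells with DMSO, the highest of the members. That length lacks any region after the stop codon.

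Hist3h2a, the H2A gene of the Hist3 cluster, was lower from 6 h on. In WT cells its CPM was 2.49, 2.42 and 2.65 with DMSO, 0.303, 0.801 and 1.05 at 6 h and 0.61, 0.899 and 0.992 at 24 h. The Nrf1-KO libraries had 1.97, 3.37 and 2.81, then 1.25, 1.62 and 0.839, then 1.41, 1.16 and 1.21. Every CFZ library lay below every DMSO library of its line, and the 6 h and 24 h libraries overlapped. The log2 fold change was -1.79 (SE 0.28, adjusted p = 1.4e-06) at 6 h and -1.53 (SE 0.26, adjusted p = 4.3e-06) at 24 h in WT cells, and -1.09 (SE 0.25, adjusted p = 0.00026) and -1.13 (SE 0.23, adjusted p = 3.3e-05) in Nrf1-KO cells. Between 6 and 24 h the difference was 0.26 (SE 0.38) in WT and -0.04 (SE 0.3) in Nrf1-KO cells. Trim17, whose exons overlap it, had 9 counts in all with DMSO and 0 at either time in WT cells, and 15, 2 and 2 in Nrf1-KO cells, beside 49, 41 and 40 counts of Hist3h2a in the 3 WT DMSO libraries. The remaining H2A member, Hist1h2ak, had 1 to 13 counts in a library and did not pass the filter.

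**Figure D3:**
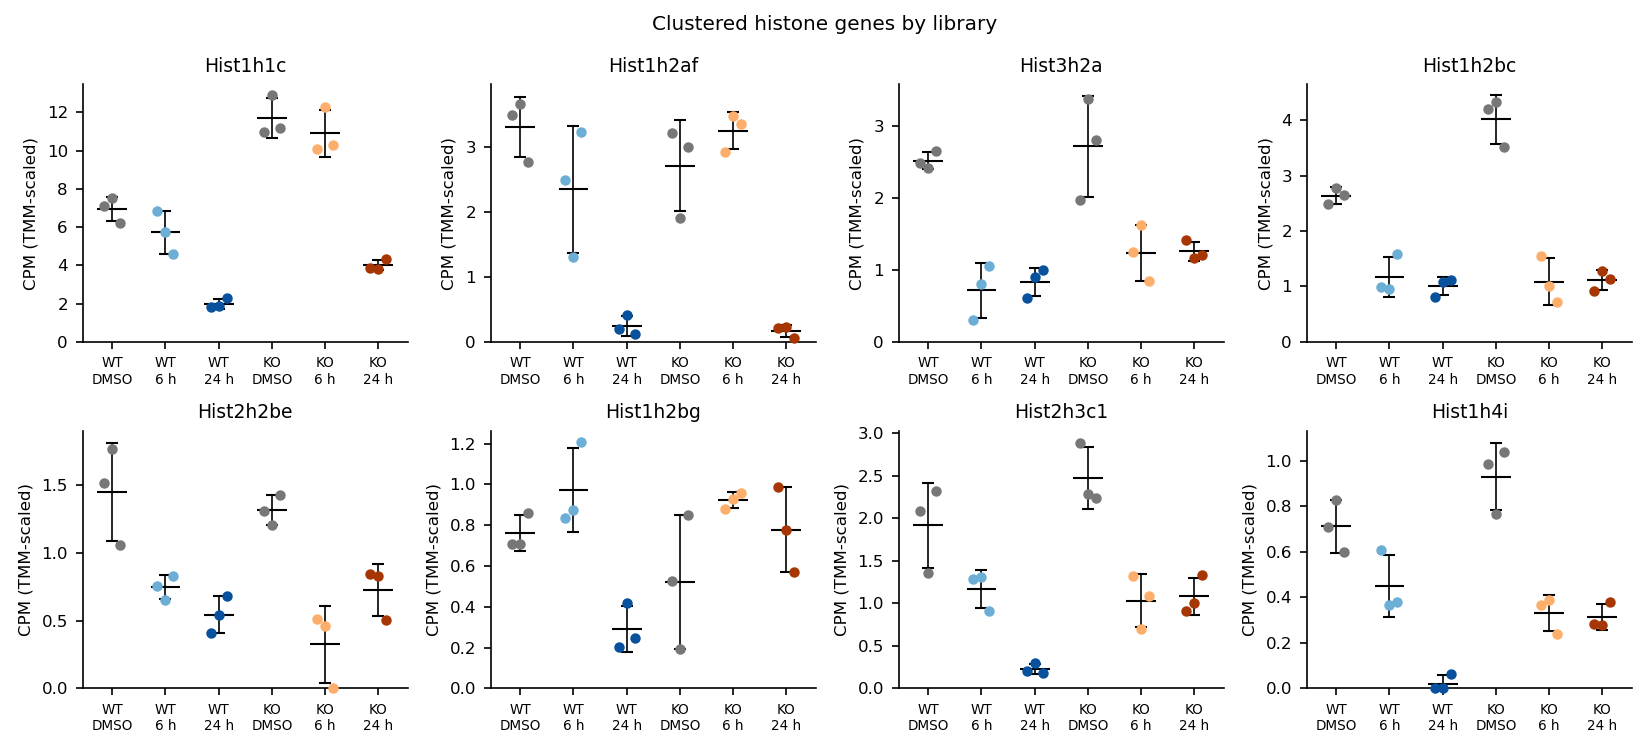
TMM-scaled CPM of the 8 tested members in every library, on an axis that starts at 0 for each gene. Points are libraries, lines means and bars SDs of 3 libraries. The DMSO mean is the highest of the 3 for 7 of the 8 genes in WT cells and for 6 in Nrf1-KO cells. Hist1h1c, Hist1h2bc, Hist2h3c1, Hist1h2bg and Hist1h4i have the lowest of their 6 group means in WT cells at 24 h.

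Hist1h2bc, a replication-dependent H2B gene, was lower from 6 h on in both lines. Its CPM was 2.49, 2.78 and 2.65 in WT DMSO libraries, 0.986, 0.947 and 1.58 at 6 h and 0.813, 1.08 and 1.12 at 24 h. In the Nrf1-KO line the CPM was 4.2, 4.33 and 3.51, then 1.54, 1 and 0.719, then 0.915, 1.28 and 1.14. The lines did not overlap with DMSO and overlapped at 6 h. The log2 fold change was -1.16 (SE 0.23, adjusted p = 3.3e-05) and -1.34 (SE 0.23, adjusted p = 3.2e-06) in WT cells, and -1.77 (SE 0.21, adjusted p = 1.2e-08) and -1.8 (SE 0.19, adjusted p = 4.8e-10) in Nrf1-KO cells, at 6 and 24 h. Between the time points it differed by -0.18 (SE 0.29) and -0.03 (SE 0.29).

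Hist2h2be, an H2B gene of the Hist2 cluster whose annotated transcript is the longest of the members at 2620 bases and shares no 100-base window with another gene, also fell by 6 h. The WT libraries had 1.52, 1.77 and 1.06 CPM with DMSO, 0.758, 0.655 and 0.828 at 6 h and 0.407, 0.54 and 0.682 at 24 h. The Nrf1-KO libraries had 1.31, 1.21 and 1.43, then 0.514, 0.463 and 0, then 0.845, 0.832 and 0.507. The library at 0 was the shallowest of the series, where a count of 0 allows up to 0.36 CPM. Its log2 fold change was -0.97 (SE 0.31, adjusted p = 0.0056) and -1.37 (SE 0.32, adjusted p = 0.00026) in WT cells and -1.82 (SE 0.38, adjusted p = 1e-04) and -0.87 (SE 0.29, adjusted p = 0.0074) in Nrf1-KO cells. In the Nrf1-KO line it stood higher at 24 h than at 6 h by 0.96 (SE 0.45, adjusted p = 0.055), which was not called.

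Hist1h2bg, an H2B gene of the Hist1 cluster, was lower at 24 h in WT cells and was not called in Nrf1-KO cells. It had 0.71, 0.709 and 0.862 CPM with DMSO, 0.834, 0.874 and 1.21 at 6 h and 0.203, 0.42 and 0.248 at 24 h in WT cells. In Nrf1-KO cells it had 0.525, 0.191 and 0.848, then 0.88, 0.927 and 0.959, then 0.986, 0.777 and 0.571. The WT libraries at 24 h lay below all other WT libraries, and the Nrf1-KO libraries at 24 h overlapped with DMSO. The log2 fold change at 24 h was -1.28 (SE 0.43, adjusted p = 0.0076) in WT cells and 0.41 (SE 0.35, adjusted p = 0.27) in Nrf1-KO cells. The Nrf1-KO DMSO group was wide, with 8, 3 and 22 counts, and without the last of these libraries the values were called higher, at 1.34 (adjusted p = 0.0085) for 6 h and 1.09 (adjusted p = 0.021) for 24 h. With all libraries the 6 h values were 0.36 (SE 0.33, adjusted p = 0.33) in WT and 0.65 (SE 0.36, adjusted p = 0.11) in Nrf1-KO cells. The remaining H2B member, Hist2h2bb, had 1 to 13 counts in a library and did not pass the filter.

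Hist2h3c1 encodes H3.2. In WT cells its CPM was 2.08, 1.36 and 2.32 with DMSO, 1.29, 1.31 and 0.904 at 6 h and 0.203, 0.3 and 0.186 at 24 h, 3 levels that did not overlap. In Nrf1-KO cells it was 2.89, 2.29 and 2.24, then 1.32, 0.695 and 1.08, then 0.915, 0.999 and 1.33, where 6 and 24 h overlapped. The log2 fold change in WT cells was -0.71 (SE 0.25, adjusted p = 0.013) at 6 h and -2.99 (SE 0.36, adjusted p = 7e-09) at 24 h. The WT call at 6 h was lost on leaving out the first or the third DMSO library or the third 6 h library, with adjusted p of 0.056, 0.064 and 0.083. In Nrf1-KO cells it was -1.23 (SE 0.25, adjusted p = 7.6e-05) and -1.16 (SE 0.23, adjusted p = 2.3e-05). These counts may include reads of Hist2h3b and Hist2h3c2, which share sequence with Hist2h3c1, and of the overlapping locus Gm20634. Hist2h3c2, the other H3 member, had 0 to 19 counts in a library and did not pass the filter.

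Hist1h4i was the only H4 member. It had 14, 14 and 9 counts in the WT DMSO libraries, 8, 5 and 5 at 6 h and 0, 0 and 1 at 24 h. The Nrf1-KO libraries held 15, 12 and 27, then 5, 5 and 2, then 4, 5 and 6. The summed WT counts per library total were 32.8 times higher with DMSO than at 24 h, with an exact 95% interval from 5.53 to 1330 that covers counting error only, and in Nrf1-KO cells 3.45 times higher (1.92 to 6.58). A count of 0 allows up to 0.305 CPM and 0.18 CPM in the first and second WT libraries at 24 h, which is below the 0.597 CPM of the lowest WT DMSO library. The fitted log2 fold change at 24 h was -4.51 (SE 0.66, adjusted p = 2.3e-07) in WT cells, a value that depends on the prior count of the fit, and -1.58 (SE 0.34, adjusted p = 8.2e-05) in Nrf1-KO cells. At 6 h it was -0.67 (SE 0.35, adjusted p = 0.12) in WT and -1.44 (SE 0.37, adjusted p = 0.00089) in Nrf1-KO cells.

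The 4 members that did not pass the filter could be tested only without one. In that fit of 16843 genes, 31.6% of which were called lower in WT cells at 24 h and 26.2% from 6 to 24 h, Hist2h3c2 was lower in WT cells at 24 h by 2.01 on the log2 scale (adjusted p = 0.0099), and Hist2h2bb fell by 2.17 from 6 to 24 h (adjusted p = 0.0022). In Nrf1-KO cells Hist2h3c2 was at -1.27 (SE 0.57, adjusted p = 0.054) at 6 h and -0.83 (SE 0.48, adjusted p = 0.12) at 24 h, and Hist2h2bb was at 0.49 (SE 0.47, adjusted p = 0.41) from 6 to 24 h. The interaction at 24 h was called for Hist2h2bb, at 1.98 (SE 0.84, adjusted p = 0.045), where 20.9% of the genes of that fit were called in that direction. In counts, Hist2h2bb had 8, 6 and 8 in the WT libraries at 6 h and 1, 2 and 2 at 24 h, whereas the Nrf1-KO libraries had 8, 3 and 5 and then 6, 13 and 12. Hist1h1e and Hist1h2ak were called in none of the CFZ comparisons of that fit, with WT values at 24 h of -0.46 (SE 0.54) and -1.1 (SE 0.65).

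The step from 6 to 24 h was tested for each member on its own. Between 6 and 24 h of CFZ, 5 of 8 members fell in WT cells (35.4% of all genes were lower) and 2 of 8 in Nrf1-KO cells (38.3%). Hist1h1c and Hist1h2af were called in both lines, with values of -1.5 and -3.14 in WT and of -1.45 and -4.21 in Nrf1-KO cells on the log2 scale. Without Hist1h4i the counts were 4 of 7 and 2 of 7. Hist2h3c1, Hist1h4i and Hist1h2bg were called in WT cells, at -2.28 (SE 0.43), -3.85 (SE 0.77) and -1.64 (SE 0.43), where the Nrf1-KO values were 0.07 (SE 0.31), -0.13 (SE 0.48) and -0.25 (SE 0.35) and were not called. Hist3h2a, Hist1h2bc and Hist2h2be were called in neither line. Hist1h2af and Hist3h2a, both H2A genes, thus had different courses, but the difference between genes was not tested.

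Whether the lines responded differently was tested by the interaction of line and CFZ. At 24 h, 3 of 8 members were called, each with the higher value in Nrf1-KO cells, where 29.7% of all genes were called in that direction. Without Hist1h4i the count was 2 of 7, near that share. Hist2h3c1 and Hist1h4i fell by less in Nrf1-KO cells, and Hist1h2bg was called lower in WT cells and not in Nrf1-KO cells. Hist2h3c1 differed by 1.83 (SE 0.48, adjusted p = 0.0015), Hist1h4i by 2.94 (SE 0.89, adjusted p = 0.0071) and Hist1h2bg by 1.69 (SE 0.56, adjusted p = 0.01), on the log2 scale. The Hist1h4i value rests on the single count in WT cells, and the call was lost without the second WT library at 24 h (2.37, adjusted p = 0.053). Hist1h1c at 0.25 (SE 0.22), Hist3h2a at 0.4 (SE 0.37), Hist2h2be at 0.51 (SE 0.45), Hist1h2af at -0.33 (SE 0.76) and Hist1h2bc at -0.45 (SE 0.33) were not called. At 6 h none of the 8 was called, where 38.3% of all genes were in either direction, with Hist1h2af alone at an unadjusted p under 0.05 (0.74, SE 0.31, adjusted p = 0.059), and DESeq2 called 0.

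The genes that act with the clustered histones were read from lists, shown beside the members in the plot of related genes at 24 h. The variants are histones that lie outside the clusters, and most can be made outside S phase. Of 10 tested, 9 were lower in each line at 24 h and 0 higher, with medians of -1.46 in WT and -1.39 in Nrf1-KO cells. Over all genes 40.5% were lower in WT and 41.1% in Nrf1-KO cells. At 6 h 8 variants were lower in WT and 9 in Nrf1-KO cells, where 36.2% and 35% of all genes were. The medians of the variants were -0.61 and -0.58. The largest fall was that of H2afx, whose product marks DNA breaks and whose transcript can also end at a stem-loop, at -3.35 (SE 0.082, adjusted p = 1.7e-26) in WT and -3.21 (SE 0.079, adjusted p = 1.7e-26) in Nrf1-KO cells. H1f0, the linker histone of resting cells, fell by 2.8 and 2.35, and H2afz, which encodes H2A.Z, by 1.33 (SE 0.042) and 1.08 (SE 0.04). H3f3b, an H3.3 gene, was at 0 (SE 0.03) at 6 h in WT and -0.02 (SE 0.03) in Nrf1-KO cells, and fell by 0.74 and 0.35 by 24 h.

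H2afz went from 295 ± 6.9 CPM with DMSO to 201 ± 3.29 at 6 h and 117 ± 6.42 at 24 h in WT cells (SD, n = 3), and from 346 ± 5.06 to 233 ± 5.76 and 164 ± 12.2 in Nrf1-KO cells. The summed variants went from 2240 to 1550 and 869 CPM of the unscaled library in WT and from 2500 to 1790 and 1120 in Nrf1-KO cells, which is 38.8% and 44.8% of DMSO after 24 h, beside 25.1% and 34.8% for the clustered members.

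**Figure D4:**
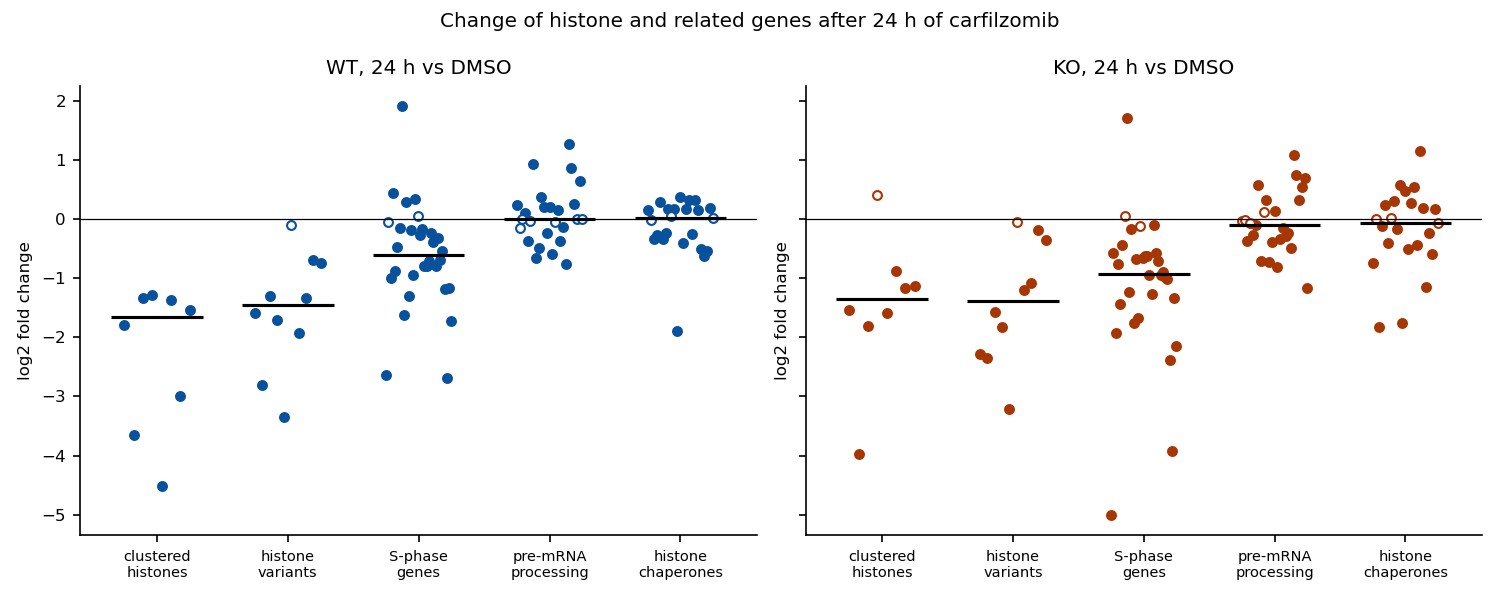
Log2 fold change after 24 h of CFZ of each tested gene among the clustered histones, the histone variants, S-phase genes, genes of histone pre-mRNA processing and turnover, and histone chaperones, in WT (left) and Nrf1-KO cells (right). Filled points were called, open points were not, and lines are medians; the medians are -1.66, -1.46, -0.61, 0.01 and 0.02 in WT and -1.35, -1.39, -0.92, -0.1 and -0.07 in Nrf1-KO cells.

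Most S-phase genes fell as well. At 24 h 24 of 30 were lower and 4 higher in WT cells, and 27 lower and 1 higher in Nrf1-KO cells, with medians of -0.61 and -0.92. Over all genes 40.5% and 41.1% were lower. The largest falls were those of Tk1, a thymidine kinase, at -2.69 (SE 0.067) in WT cells and Ccna2, cyclin A2, at -5 (SE 0.061) in Nrf1-KO cells. In the interaction at 24 h, 24 of 30 S-phase genes had the larger fall in Nrf1-KO cells and 3 the smaller, with a median of -0.46. The 3 of 8 histone members called had the higher value there. Without Hist1h4i, which passed the filter only through DMSO libraries, the count was 2 of 7, near the 29.7% of all genes called in that direction. The members not called ran from -0.45 to 0.51. Among all 11762 genes tested, 3532 were called lower and 3498 higher in that interaction.

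Genes of histone pre-mRNA processing and turnover went both ways. At 24 h 11 of 25 were higher and 8 lower in WT cells, and 8 higher and 13 lower in Nrf1-KO cells. Genes as a whole also went both ways. Among all 11762 tested, 5083 were higher and 4768 lower in WT cells, and 5226 higher and 4829 lower in Nrf1-KO cells. Slbp, which encodes the stem-loop binding protein, fell by 0.59 (SE 0.05, adjusted p = 1.9e-12) in WT and by 0.81 (SE 0.045, adjusted p = 4.1e-17) in Nrf1-KO cells, from 65.5 ± 4.08 to 43 ± 2.01 CPM and from 98 ± 4.18 to 55.9 ± 1.42 CPM. Npat, the coactivator of histone gene transcription, stood at 0.2 (SE 0.045, adjusted p = 0.00014) and 0.14 (SE 0.043, adjusted p = 0.0028), small rises that were lost with other scalings. Casp8ap2, which encodes the FLASH protein of the processing complex, was at 0.24 (SE 0.053, adjusted p = 1e-04) in WT and -0.03 (SE 0.057, adjusted p = 0.61) in Nrf1-KO cells. The WT call was also lost with upper-quartile scaling. Srrt, which encodes ARS2 of the cap-binding machinery, had the largest rise in both lines, 1.27 (SE 0.033) and 1.09 (SE 0.033). The largest falls were those of Snrpg, an Sm protein gene, at -0.76 (SE 0.072) in WT and Zfp473, which encodes a zinc finger protein of the U7 complex, at -1.16 (SE 0.34) in Nrf1-KO cells. Zfp473 was near the 0.693 CPM of the filter, with 1.18 ± 0.0814 CPM with DMSO and 0.544 ± 0.287 at 24 h in Nrf1-KO cells, so its fall rests on few counts.

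Among 23 histone chaperone genes 10 were higher and 10 lower in WT cells at 24 h, and 9 higher and 11 lower in Nrf1-KO cells. These counts were near the shares over all 11762 genes tested. There 5083 were higher and 4768 lower in WT cells, and 5226 higher and 4829 lower in Nrf1-KO cells. Hjurp, the CENP-A chaperone, had the largest fall in WT cells (-1.89, SE 0.13), and Asf1b, an H3-H4 chaperone linked to dividing cells, had it in Nrf1-KO cells (-1.83, SE 0.061) with -0.33 (SE 0.054) in WT. The largest rises were those of Ipo4, an importin for H3 and H4, at 0.38 (SE 0.043) in WT and Npm1, nucleophosmin, at 1.15 (SE 0.039) in Nrf1-KO cells.

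Other RNAs without a poly(A) tail were read from a further list. Of 25 listed, 19 had a row in the count table and 1, the 45S ribosomal precursor Rn45s, passed the filter. Rn45s had 1670 ± 249 CPM with DMSO, 1340 ± 49.7 at 6 h and 2370 ± 137 at 24 h in WT cells (SD, n = 3), and 1510 ± 168, 1270 ± 212 and 2380 ± 265 in Nrf1-KO cells. It was lower at 6 h, at -0.32 (SE 0.091, adjusted p = 0.0025) and -0.25 (SE 0.091, adjusted p = 0.016), and higher at 24 h, at 0.51 (SE 0.091, adjusted p = 7.1e-06) and 0.66 (SE 0.091, adjusted p = 7e-08). The 18 others summed to 0.885 ± 0.444 CPM of the unscaled library with DMSO, 0.614 ± 0.238 at 6 h and 1.19 ± 0.233 at 24 h in WT cells, and to 0.707 ± 0.133, 0.384 ± 0.206 and 1.13 ± 0.415 in Nrf1-KO cells, on 14 to 58 counts in a group. At 24 h Rn45s and the clustered histones thus moved in opposite directions, and the sum of the 18 others was not tested.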

How the data were processed

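Poly(A)-selected RNA of NIH-3T3 cells, WT and Nrf1-KO, was sequenced as 18 libraries (KAPA stranded mRNA kit, paired reads). The authors aligned and counted reads with STAR in the RNA Express app, which also runs DESeq2, and deposited raw counts per gene symbol. Genome build, annotation, strand setting and tool versions are not given in the sources used here. The study calls the 3 libraries of a group biological replicates.

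From the counts, genes were filtered with filterByExpr (minimum count 10, total 15, which here is 0.693 CPM in at least 3 libraries), scaled by TMM and tested with edgeR 4.0.16 (limma 3.58.1, R 4.3.3) as 6 groups without a block. Each SE is the log2 fold change over the root of its F statistic. The script was tested on simulated data. The 9 comparisons were repeated with DESeq2 1.42.0, upper-quartile scaling, library size alone, a replicate block, no filter, a fit of only the groups compared, a fold of at least 2, and each library left out. Replicates did not duplicate each other (chi-square per degree of freedom 1.438 to 8.469). Intervals and floors (3 counts) cover counting error only.

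Members and gene lists were chosen with earlier results of these data known. Named were the 2 members with the most CPM in each class, up to 3 members with the largest changes in each comparison, Slbp, Npat, Casp8ap2, H2afz, H3f3b, Nfe2l1, and the gene of each related list with the largest rise and fall at 24 h. A gene that this rule names is not reported here. Other members, H1f0 and the markers were added after their values were seen. Sequences came from GENCODE M21 and RefSeq, both of GRCm38, and all 68 symbols matched GENCODE.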

Additional observations from a re-analysis of the deposited data

Results flagged for a closer look

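The response to CFZ at 24 h differed between the lines for 3 members by the test of the interaction itself, out of 8 tested. Each had the higher value in Nrf1-KO cells, where 29.7% of all genes were called in that direction. Without Hist1h4i, which passed the filter only through DMSO libraries, the count was 2 of 7, near that share. Hist2h3c1 differed by 1.83 on the log2 scale (SE 0.48, adjusted p = 0.0015 by edgeR), and its value over the alternatives ran from 1.65 to 2.1 with adjusted p from 4e-04 to 0.011. Hist1h2bg, which was not called in Nrf1-KO cells (0.41), differed by 1.69 (SE 0.56, adjusted p = 0.01), with a range of 1.37 to 2.38 and adjusted p from 0.00097 to 0.035. Hist1h4i differed by 2.94 (SE 0.89, adjusted p = 0.0071), with a range of 2.37 to 4.88 and adjusted p from 0.0046 to 0.053, and its WT group at 24 h held 1 count in all. The WT libraries at 24 h had 2, 5 and 3 counts of Hist2h3c1 and 2, 7 and 4 of Hist1h2bg, and the Nrf1-KO libraries 13, 18 and 21 and 14, 14 and 9.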

How the results depend on the processing

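All 15 member calls at 24 h against DMSO kept their direction and their call in 180 values from other scalings, DESeq2, no filter, the block, fewer groups or a left-out library. With a fold of at least 2 the Nrf1-KO count went from 7 to 6, without Hist2h2be. Changes were read relative to the median gene, which upper-quartile scaling moved to -0.13 and library size alone to -0.15 in WT cells at 6 h. At 6 h the WT count of 5 became 2 with a fold of at least 2, and 3 to 5 on leaving out 1 library. The interaction at 6 h went from 0 to 1 member (Hist1h2af) with upper-quartile scaling, library size alone, no filter or the replicate block, and was 0 to 1 on leaving out 1 library. The count of 2 between the lines with DMSO became 0 with a fold of at least 2. The cause of these changes was not tested. The deviations of libraries with the same number were uncorrelated (mean 0.0136, from -0.0494 to 0.0972 over 45 pairs), so the numbers do not pair them, and beyond that count the block added a call for Hist1h1c in WT cells at 6 h (-0.28, adjusted p = 0.045).

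Over all 68 rows in place of 12, the shares were 28.1, 19 and 7.43 CPM of the unscaled library in WT and 36.1, 26.2 and 14 in Nrf1-KO cells with DMSO, at 6 h and at 24 h, since more rows were summed. With TMM scaling, an alternative chosen after seeing the data, the 12 members took 21.7 in WT with DMSO, 28.2 in Nrf1-KO with DMSO and 11.1 in Nrf1-KO at 24 h. Of single genes, Hist1h2af reversed in the interaction at 24 h without the second WT library at 24 h (0.38) or the third Nrf1-KO library at 24 h (0.04), with -0.71 to 0.38 over all left-out libraries, Npat in Nrf1-KO cells at 24 h with library size alone (-0.04), and Casp8ap2 there without the first Nrf1-KO DMSO library (-0.1 to 0 over all left-out libraries). None of these was called.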
